A study of Mus musculus with 6 samples.

Results

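The 5 rows described here are the arms of the miR-129 hairpins of the mouse: mmu-miR-129-5p, mmu-miR-129-1-3p and mmu-miR-129-2-3p, with mmu-miR-129b-5p and mmu-miR-129b-3p from the opposite strand. The prefix mmu, for mouse, is left off below. They were taken by name from a small RNA count table of 1482 rows. The libraries came from spinal cord of mice killed on day 2 after surgery, with about 1 cm of cord around level T10 taken. Those labelled control (3 libraries) had a laminectomy at T10 alone. Those labelled SCI, for spinal cord injury (3 libraries), had the laminectomy and a moderate contusion from a 10 g weight dropped 20 mm. The strain and age of the mice were not given in the sources used here. Each library is assumed to stand for its own mouse; if not, the p-values measure technical spread only.

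A miRNA is cut from a hairpin transcript, and either arm, 5p or 3p, can be loaded into Argonaute, where bases 2 to 8, the seed, pair with target mRNAs. miR-129-5p is enriched in neurons. It is known there as a repressor of mRNAs for dendritic and synaptic proteins, among them the potassium channel Kcna1, and has been studied in seizures and in the scaling down of synapses. Its mature sequence comes from a pair of hairpins on different chromosomes, so its count is a sum over both. The 3p arms differ between these hairpins and report on each one separately, as far as the counting keeps them apart.

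The hairpins are shown first, since their sequences set which rows can share reads. All are from RefSeq on GRCm38.p6, the assembly that mm10 denotes, with mature arms in capitals. In Mir129-1 the second stretch in capitals is the window that best matches miR-129-2-3p.
Mir129-1: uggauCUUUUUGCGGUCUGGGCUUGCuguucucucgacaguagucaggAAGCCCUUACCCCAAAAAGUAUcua
Mir129-2: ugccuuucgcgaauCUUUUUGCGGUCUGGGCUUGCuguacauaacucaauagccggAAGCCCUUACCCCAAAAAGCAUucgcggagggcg
Mir129b: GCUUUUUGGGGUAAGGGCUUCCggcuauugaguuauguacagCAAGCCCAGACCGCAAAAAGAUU

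Mir129-1 lies at chr6:29022619-29022691 on the plus strand, within an exon of the long noncoding RNA gene Gm3294. Mir129-2 lies at chr2:94241364-94241453 on the minus strand, inside the long noncoding RNA gene Mir670hg and outside its annotated exons, so it is intronic. Mir129b occupies chr2:94241378-94241442 on the plus strand, within the span of Mir129-2. It is the same DNA read from the other strand. The 3p window of Mir129-1 differs from miR-129-2-3p by 1 of 22 bases, C20U, counted from the 5′ end of miR-129-2-3p, with the base of miR-129-2-3p given first.

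RefSeq held mature sequences for 4 of the 5 rows, shown with the seed in capitals.
miR-129-5p: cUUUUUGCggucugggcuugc
miR-129-2-3p: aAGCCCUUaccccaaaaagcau
miR-129b-5p: gCUUUUUGggguaagggcuucc
miR-129b-3p: cAAGCCCAgaccgcaaaaagauu

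The 4 seeds differ from each other, and no other row with a RefSeq sequence carried any of them, among 1175 rows of the table that have one. miR-129-1-3p has no such sequence and is outside this check. Its window in Mir129-1 differs from miR-129-2-3p only by C20U, so with the same start it would carry the same seed. The seed of miR-129b-5p is that of miR-129-5p shifted by 1 base: bases 2 to 7 of miR-129-5p are bases 3 to 8 of miR-129b-5p, UUUUUG.

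On chromosome 2, miR-129b-3p overlaps miR-129-5p by 20 bases on the opposite strand, and miR-129b-5p overlaps miR-129-2-3p by 20 bases. Reverse complements of the miR-129b arms make this visible, with the shared run in capitals.
miR-129b-3p reverse complement: aauCUUUUUGCGGUCUGGGCUUG
miR-129b-5p reverse complement: ggAAGCCCUUACCCCAAAAAGC

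The rows for miR-129-5p and miR-129b-3p had nearly the same counts in every library. The miR-129-5p row held 8395, 5447 and 8290 counts in control-labelled libraries 1, 2 and 3. SCI-labelled libraries 1, 2 and 3 held 19102, 17515 and 25130. The miR-129b-3p row held 8353, 5409 and 8227 counts, then 19023, 17442 and 25037, in the same order of libraries. The gap was 38 to 93 counts, and the lesser row was 99.2% to 99.6% of the other. The pair is therefore treated as 1 signal, and these counts cannot show how it divides between the strands.

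The other opposite-strand pair was not near-equal. For miR-129b-5p the control-labelled libraries held 441, 262 and 421 counts and the SCI-labelled ones 478, 429 and 418. For miR-129-2-3p they held 1740, 1362 and 2392, and 2820, 2295 and 2322. The former was thus 16.95% to 25.3% of the latter, highest in control-labelled library 1 and at 16.95% to 19.2% in the other libraries. Whether the miR-129b-5p row counts reads of its own strand cannot be told from the table, since the sources used here do not say how strand was treated.

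Near-equal counts on opposite strands were not particular to miR-129. Of 22 pairs of rows whose RefSeq positions overlap by at least 15 bases on opposite strands and whose more counted row had at least 100 counts over all libraries, 8 had a lesser row at 95% or more of the other in every library. These include miR-24-3p with miR-3074-5p and miR-142a-3p with miR-142b. In the lowest pair, miR-219c-3p had 0% to 0.170% of the counts of miR-219a-5p, and in the most counted pair miR-126b-5p had 0.482% to 0.991% of the counts of miR-126a-3p. The examples were chosen after their values were seen, and the pairs are given as a description.

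**Figure D1:**
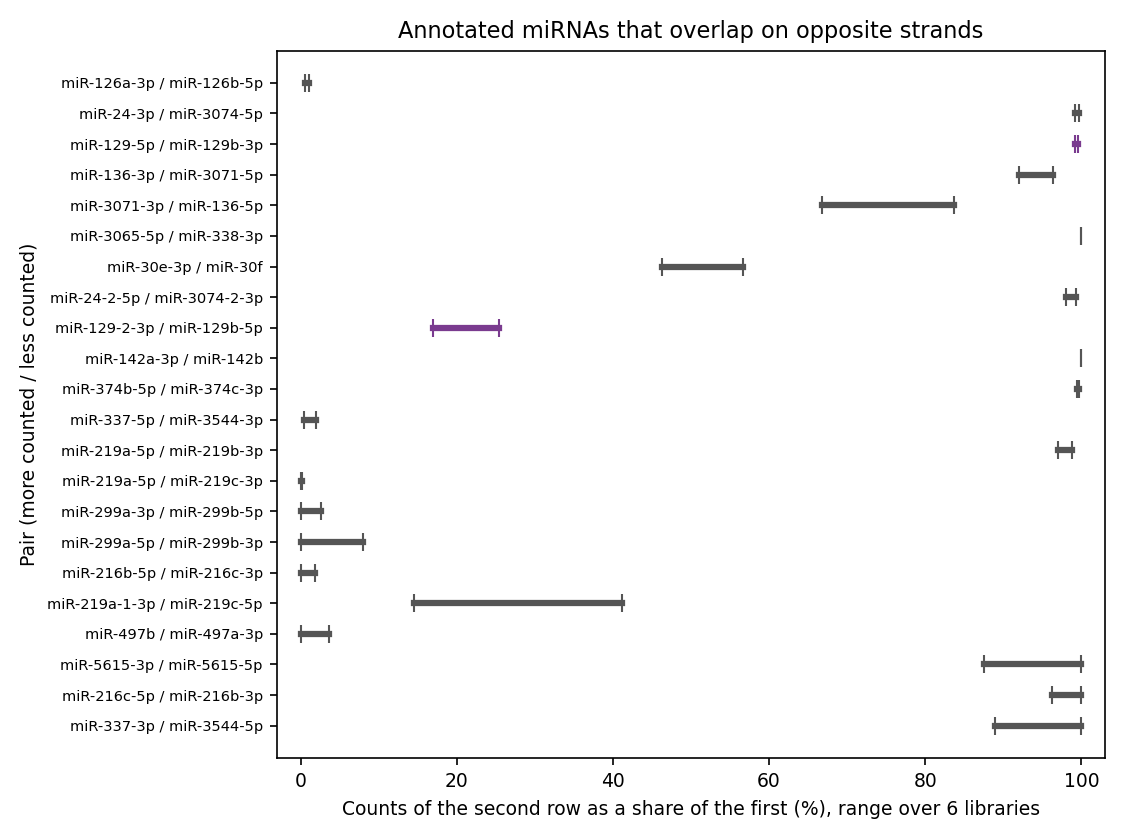
Pairs of annotated miRNAs that overlap on opposite strands, ordered by counts of the more counted row. The x axis gives the counts of the second row as a percentage of the first, and each line spans the lowest to the highest of the 6 libraries. The miR-129-5p pair, in purple, spans 99.2% to 99.6% and the miR-129-2-3p pair, also in purple, 16.95% to 25.3%.

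Library totals ran from 5568491 to 8889977 counts, and levels below are counts scaled to library size by TMM (written CPM). Counts were not divided by length. Reads of near-equal rows may be counted in each of those rows, and so may enter a library total repeatedly. Markers of spinal cord were present in every library: the neural miR-9 arms took 5.70% to 9.82% of control-labelled and 8.93% to 10.8% of SCI-labelled counts, and the Hox cluster miRNAs miR-10 and miR-196 took 8.08% to 10.7% in the control-labelled and 17.0% to 20.8% in the SCI-labelled group. Of the 2 miR-9 rows tested, 1 was higher by edgeR in the SCI-labelled group and 0 lower. Of the 4 Hox cluster rows tested, 2 were higher by edgeR and 0 lower. For comparison, 16.3% of all tested rows were higher and 23.1% lower. The summed Hox shares of the groups do not overlap, and their part in the miR-129-5p difference was not tested. The labels themselves went against miRNAs known to respond to injury. miR-21a-5p, widely reported to rise in damaged tissue, was 8.34-fold lower in the SCI-labelled libraries (edgeR quasi-likelihood adjusted p = 7.02e-05). The neutrophil miRNA miR-223-3p was 13.5-fold lower (7.02e-05 by edgeR). In the deposited table the SCI-labelled columns have names that begin with Normal, and the others have names that begin with Control. Groups are called by their labels, and every direction below is that of the labels as deposited. Control-labelled library 3 stood apart in its skeletal muscle miRNAs, which took 4.36% of its counts. In the other libraries they took 0.784% to 1.86%.

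miR-129-5p was higher in the SCI-labelled libraries. It stood at 1344, 986 and 976 CPM in control-labelled libraries 1, 2 and 3, and at 2367, 2715 and 2847 CPM in SCI-labelled libraries 1, 2 and 3. The groups did not overlap: the lowest SCI-labelled library was above the highest control-labelled one. Means were 1102 ± 210 CPM and 2643 ± 248 CPM (SD, n = 3 each), a 2.40-fold difference (log2 1.26, SE 0.20; adjusted p = 0.00157 by edgeR over 614 tested rows). The 95% interval of the log2 change was 0.81 to 1.71. The row ranked 72nd to 85th by counts in the control-labelled and 44th to 47th in the SCI-labelled libraries. miR-129b-3p, the row with which it shares its counts, was 2.40-fold higher as well (adjusted p = 0.00157 by edgeR) and is not a separate observation.

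Of the 614 rows tested, 16.3% were called higher in the SCI-labelled group and 23.1% lower, 39.4% in either direction. In 51.3% of rows the groups did not overlap, and 23.3% were higher without overlap. Of the 5 miR-129 rows, all tested, 2 were called, both higher, and these stand for 1 signal.

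The 3p arms showed smaller differences. miR-129-1-3p, the arm from the chromosome 6 hairpin, stood at 95.6, 62.8 and 61.8 CPM in control-labelled libraries 1 to 3, against 149, 122 and 92.7 CPM in SCI-labelled libraries 1 to 3. Control-labelled library 1 lay just above SCI-labelled library 3, so the groups overlapped. The log2 change was 0.72 (SE 0.27, 95% interval 0.12 to 1.33), and it did not pass the main edgeR test (adjusted p = 0.0602). This value lay close to the threshold: DESeq2 called the arm higher (adjusted p = 0.0308), as did edgeR with RLE scaling (0.0494), with the upper quartile (0.0284), without a filter on low counts (0.0360), and without control-labelled library 1 (0.0226). Over all alternatives, tools included, its adjusted p ran from 0.0226 to 0.190, the highest without SCI-labelled library 1.

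miR-129-2-3p, the arm from the chromosome 2 hairpin, was the more abundant of the 3p arms in every library. Its control-labelled levels were 279, 247 and 282 CPM, and its SCI-labelled levels 349, 356 and 263 CPM. SCI-labelled library 3 fell within the range of the control-labelled libraries, and the other SCI-labelled libraries lay above it. Its log2 change of 0.26 (SE 0.20, 95% interval -0.20 to 0.72) did not pass the test (edgeR adjusted p = 0.339).

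miR-129b-5p, the opposite-strand 5p arm, was the least abundant row in every library. Its control-labelled levels were 70.6, 47.4 and 49.6 CPM, and its SCI-labelled levels 59.2, 66.5 and 47.4 CPM. The groups overlapped throughout. The log2 change was 0.046 (SE 0.24, 95% interval -0.49 to 0.58; edgeR adjusted p = 0.881), and its sign turned with the scaling, at -0.028 with the library total only.

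**Figure D2:**
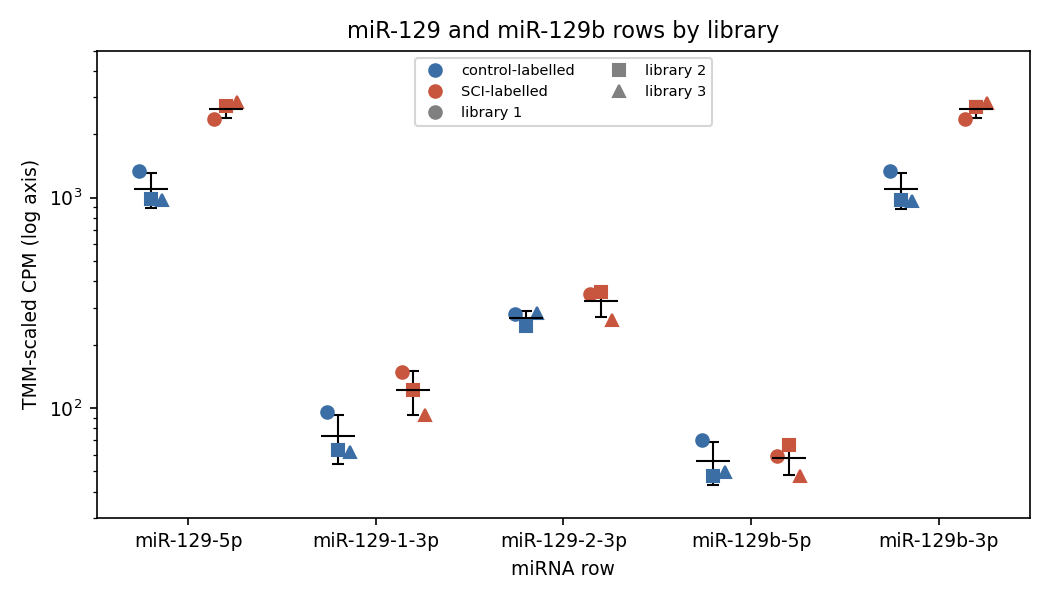
Levels of the 5 rows in TMM-scaled CPM on a log axis, with control-labelled libraries in blue and SCI-labelled in red; the marker shape gives the library number, and black bars give the mean and SD of 3 libraries. The groups separate for miR-129-5p and for miR-129b-3p, which shares its counts, and overlap for the other rows.

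The balance between arms was compared within each library, where no scaling between libraries enters. Arms of a single hairpin leave the same transcript, but these counts pool both miR-129 hairpins. The miR-129-5p row may also hold opposite-strand reads of miR-129b-3p. The parts of hairpin mix and strand in this balance were not tested. Counts of miR-129-5p over the summed 3p arms were 3.59, 3.19 and 2.84 among control-labelled libraries, against 4.75, 5.69 and 8.003 among SCI-labelled ones. Every SCI-labelled library had a higher ratio than every control-labelled one. The share of other hairpins whose arm ratios separate the groups in this way was not computed. As a share of all miR-129 arm counts (5p plus both 3p), miR-129-5p took 78.2%, 76.1% and 74.0% in the control-labelled libraries. It took 82.6%, 85.0% and 88.9% in the SCI-labelled libraries. Wilson 95% intervals reached at most 0.988 percentage points to either side, counting error only. Means were 76.1% ± 2.13 and 85.5% ± 3.17 (SD, n = 3 each), a difference of 9.41 points (exact two-sided permutation p = 0.1, the smallest that 3 against 3 allows, and 0.2 adjusted over 2 shares).

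SCI-labelled library 3 had the highest 5p level of its group and the lowest levels of both 3p arms. The ratio of miR-129-5p to miR-129-2-3p was 10.8 in that library, and 6.77 and 7.63 in the other SCI-labelled libraries. In the control-labelled group it was 4.82, 3.999 and 3.47.

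The same question was put to the count model, across every group of arms with a shared name. edgeR's diffSpliceDGE asks whether rows of a family change unequally. It called the miR-129 family (miR-129-5p, miR-129-1-3p and miR-129-2-3p; adjusted p = 0.0141), and 30.7% of the 202 families tested were called. Relative to the family as a whole, the log2 change was 0.17 for miR-129-5p, -0.37 for miR-129-1-3p and -0.83 for miR-129-2-3p. None of the 3 rows passed by itself: the adjusted p of miR-129-2-3p was 0.0711, that of miR-129-1-3p 0.771 and that of miR-129-5p 1.00 by diffSpliceDGE. The family call was lost without SCI-labelled library 2 (0.0941) or 3 (0.136) and with no filter on low counts (0.0521, all from edgeR). The miR-129b family was called as well (adjusted p = 0.00237 by diffSpliceDGE), but its 3p row shares its counts with miR-129-5p. Neither family call shows from which strand the shared counts came.

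Between the 3p arms, the hairpin on chromosome 6 gave the smaller part. miR-129-1-3p made up 25.5%, 20.3% and 18.0% of 3p counts among control-labelled libraries, against 29.9%, 25.5% and 26.1% among SCI-labelled ones. Control-labelled library 1 and SCI-labelled library 2 had nearly the same share, so the groups overlapped. Means were 21.3% ± 3.87 and 27.1% ± 2.38 (SD, n = 3 each), and the difference of 5.85 points had an exact two-sided permutation p of 0.2. Wilson intervals reached at most 1.91 points to either side. The split rests on 1 base, C20U, and the sources used here do not give the mismatch allowance of the counting. A shared miR-129-5p cannot be divided between the hairpins by this share, since each hairpin may yield its arms in different proportion.

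**Figure D3:**
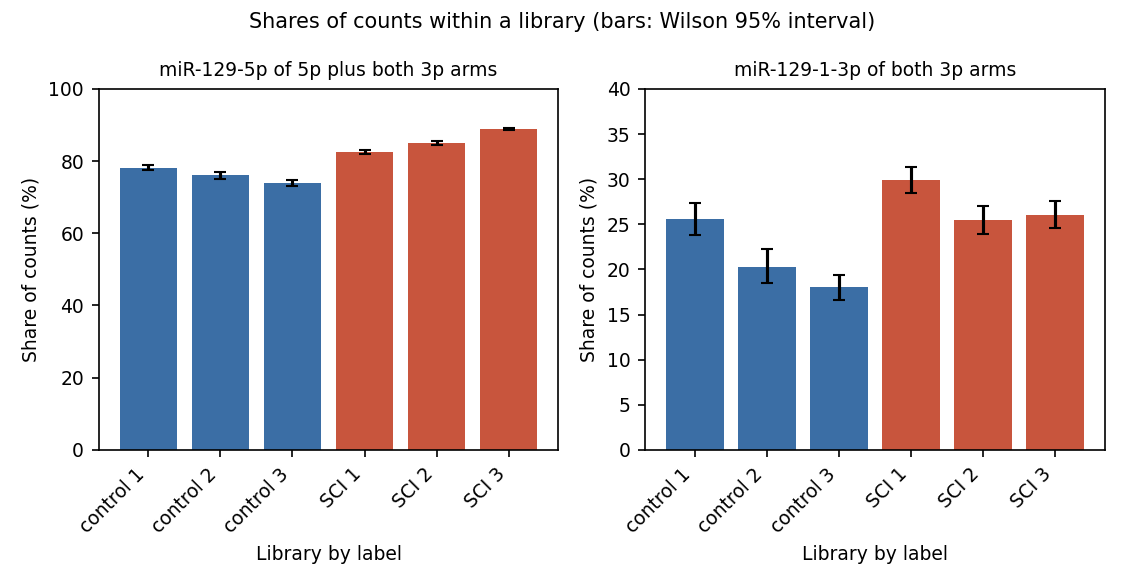
Share of counts within each library, in percent, with Wilson 95% intervals: miR-129-5p of all miR-129 arms on the left, and miR-129-1-3p of both 3p arms on the right. The left panel shows 74.0% to 78.2% in the control-labelled (blue) and 82.6% to 88.9% in the SCI-labelled libraries (red); in the right panel the groups overlap.

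Mir670hg, which spans the miR-129-2 hairpin, also carries the miR-670 hairpin in its annotation. Its 5p arm, miR-670-5p, was read 4, 1 and 4 times among control-labelled libraries and 7, 3 and 9 times among SCI-labelled ones. Its 3p arm, miR-670-3p, was read 2, 2 and 9 times, and 7, 4 and 8 times. The arms of this hairpin were thus far below miR-129-2-3p in every library, and the groups were not compared.

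Other miRNAs enriched in neurons were taken from a list of 21, of which 19 were tested. Of these, 8 were higher, 1 was lower and 10 did not pass the edgeR test; over all tested rows, 16.3% were higher and 23.1% lower. The median log2 change was 0.62, and over all 614 tested rows it was -0.072. miR-218-5p, which marks motor neurons, was 2.68-fold higher (7503 ± 1557 and 20088 ± 2320 CPM; SD, n = 3 each; adjusted p = 0.0013 by edgeR). miR-128-3p, which restrains neuronal excitability, was 2.76-fold higher (adjusted p = 0.000576 by edgeR), and miR-7b-5p was 1.69-fold higher (0.00812 by edgeR). For miR-7a-5p the log2 change of 0.44 missed the threshold (edgeR adjusted p = 0.0843).

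miR-124-3p, the most neuron-specific of them in textbook descriptions, had a log2 change of -0.52, which missed the threshold (edgeR adjusted p = 0.339). Control-labelled library 3 held 2008 CPM of it, against 660 and 725 CPM in libraries 1 and 2. Without library 3 the log2 change was 0.23. miR-212-3p was the member that was lower (log2 -0.91, adjusted p = 0.0318 by edgeR). The other arm of its hairpin, miR-212-5p, was higher (log2 0.86, adjusted p = 0.0131 by edgeR). Counts of calls moved with single libraries: without SCI-labelled library 3, 5 members were higher, and without control-labelled library 3, 11 were higher. The call of miR-212-3p was lost without SCI-labelled library 1, 2 or 3.

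**Figure D4:**
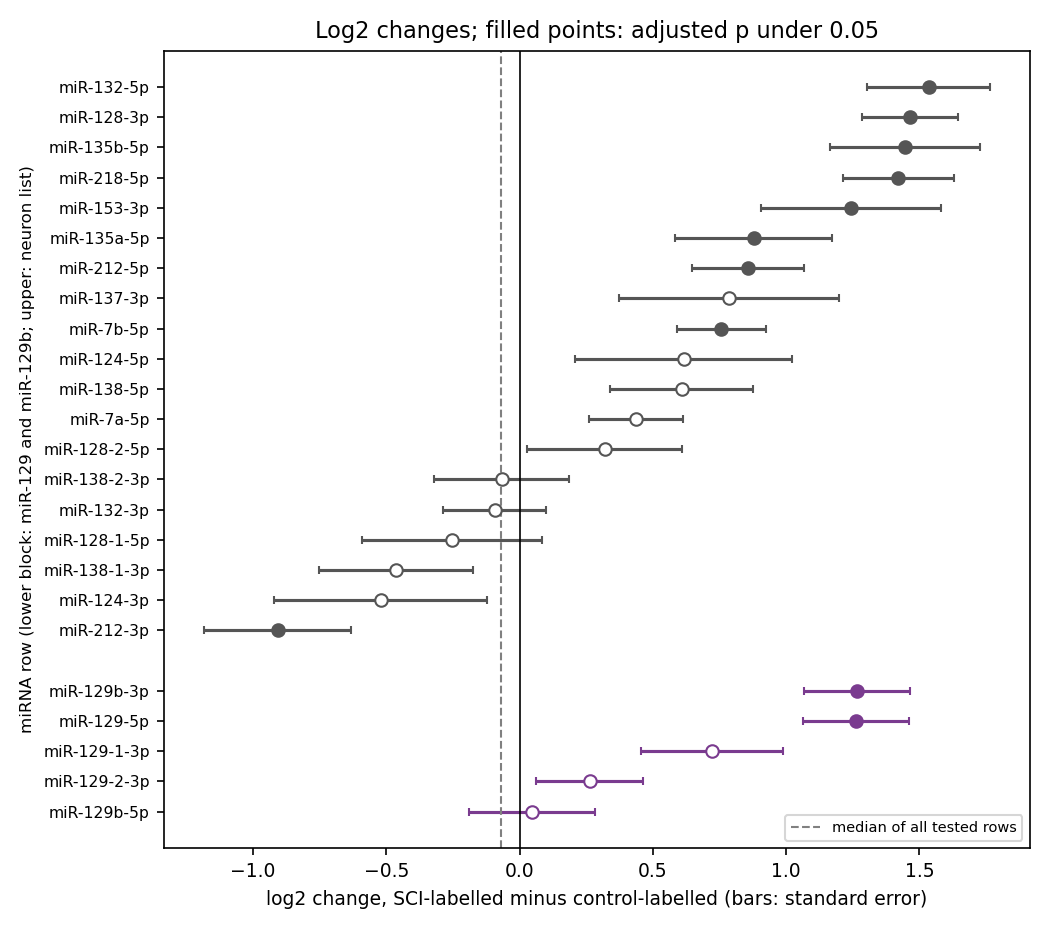
Log2 change, SCI-labelled minus control-labelled, with its standard error, for the miR-129 rows (purple, lower block) and the tested members of the neuron list (grey, upper block); filled points passed the test at an adjusted p of 0.05, and the dashed line is the median of all tested rows, -0.072. miR-129-5p at 1.26 lies among the higher members of the list, whose values run from -0.91 to 1.53.

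The neuron list, summed, took 2.62% to 3.11% of counts in the control-labelled and 4.74% to 5.62% in the SCI-labelled libraries. Most of this share lay in miR-218-5p, miR-7a-5p and miR-128-3p, so it says little of the less counted members. Markers of blood cells moved the other way. The leukocyte list took 0.250% to 0.339% and 0.0676% to 0.0748% of counts, with 6 of 7 tested members lower. The erythroid list took 1.62% to 4.08% and 0.299% to 0.629%, with 6 of 6 lower. Over all tested rows 23.1% were lower. The leukocyte list holds both arms of miR-223 and of miR-142a, and the erythroid list both arms of miR-144. Members of these lists are therefore not all separate observations. The erythroid list also holds rows of miR-486a and of miR-486b, and whether these share reads was not examined. Of 7 oligodendrocyte members tested, 0 passed edgeR (0 also before adjustment at 0.05), DESeq2 or limma voom. Among them, miR-219b-3p had 97.0% to 98.8% of the counts of miR-219a-5p and is not a separate observation. The oligodendrocyte list, with both rows summed, took 1.11% to 1.38% of control-labelled and 1.15% to 1.28% of SCI-labelled counts. Most of that share lay in miR-219a-2-3p, at control-labelled and SCI-labelled means of 8765 and 9228 CPM. Control-labelled library 3 held 335 CPM of miR-219a-5p, against 69.7 and 78.2 CPM in libraries 1 and 2. SCI-labelled libraries held 91.0 to 139 CPM, so the negative log2 change of this row (-0.55) rests on 1 library. A fit of this row without that library was not examined. Of 4 astrocyte members, 0 passed edgeR. The nearest, miR-29a-5p, named after its value was seen, had an adjusted p of 0.0501 and was the 1 member under 0.05 before adjustment; DESeq2 and limma voom each called 1 member. That list took 0.368% to 0.890% and 0.395% to 0.589% of counts. No listed marker that the table holds was at 0 in all libraries. The part of these cell types in the level of miR-129-5p was not tested. In whole cord, a different share of neurons and a different level of miR-129 per neuron cannot be told apart.

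The rows with the profile closest to miR-129-5p across the 6 libraries were found by the root mean square difference of centred log2(CPM + 1), among 264 rows with a mean of at least 50 CPM, the 5 miR-129 rows left out. The closest was miR-330-5p (0.15), followed by miR-434-5p (0.17), miR-204-5p (0.17), miR-369-5p (0.17) and miR-758-3p (0.19). Rows with near-equal counts to a row already listed were passed over. The 5 listed rows were 2.24-fold to 2.68-fold higher in the SCI-labelled libraries. A fold near that of miR-129-5p follows from how they were chosen and is not a separate result. Mean levels of miR-330-5p were 1271 ± 317 and 3229 ± 288 CPM (SD, n = 3 each), a level near that of miR-129-5p in both groups. None of these 5 was on the neuron list.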

How the data were processed

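Small RNA libraries were made from 3 µg of total RNA per sample with the NEBNext small RNA kit, per the labels' protocols. The authors deposited whole-number read counts per miRNA, without normalization, and a TPM column. The deposited TPM values equal CPM of the column total to within 2.74e-05 per row, so they hold no length term. Bowtie and mm10 are named, without version, in the submitters' processing notes. The sources used here do not give the miRNA database release, the mismatch allowance, or how strand and multi-mapping reads were treated. All 12 value columns were matched to a sample. The sample descriptions name the count columns, and the TPM columns share the start of those names.

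The count analysis used edgeR 4.0.16 in R 4.3.3: filterByExpr (minimum count 10; 614 rows), TMM, and a robust quasi-likelihood F test on group alone. Benjamini-Hochberg adjustment ran over these 614 rows, with a threshold of 0.05. SE is the log2 change over the square root of F. Arm usage was tested with diffSpliceDGE on rows grouped by name without arm and copy number; its coefficients were converted to log2. Shares were compared by exact permutation. Alternatives used limma 3.58.1, DESeq2 1.42.0, other scalings, filters and samples. The named miRNAs are the 5 arms, rows sharing their seed, the 5 most abundant tested neuron members, the 5 closest profiles, and 2 label checks; other miRNAs named were chosen after their values were seen. Members and lists were chosen with earlier results of these data known. The edgeR test and diffSpliceDGE were also run on simulated counts, and the other steps were not. No libraries of a group agreed within sampling noise (chi-square per degree of freedom of 194 or more). Replicate numbers are those of the sample titles, and the column names number the control-labelled libraries differently. Libraries with the same title number did not deviate together, which cannot exclude a pairing.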

Additional observations from a re-analysis of the deposited data

How the results depend on the processing

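The call of miR-129-5p, and of miR-129b-3p where it was kept as a row, held under all 16 and 15 alternatives, with log2 changes of 1.18 to 1.496 and 1.18 to 1.501 and edgeR, DESeq2 or limma adjusted p up to 0.0122. miR-129-2-3p stayed between 0.17 and 0.41 and passed under none of 16. miR-129-1-3p was called with RLE (0.74), the upper quartile (0.85), no filter (0.76) and DESeq2 (0.74), and without each library in turn it ranged from 0.58 to 1.03. The log2 change of miR-129b-5p turned negative with the library total (-0.028), limma voom (-0.046) and limma on log2(TPM + 1) (-0.022), and ranged from -0.066 to 0.32 without each library. The arm usage value for miR-129-5p was 0.17 with no filter, where the call was lost, and 0.14 to 0.19 without each library. Both shares kept their sign without each library and with summed counts. miR-124-3p turned to 0.0069 with limma voom and ranged from -0.77 to 0.23 without each library, the highest without control-labelled library 3. Without each library, 54 to 152 rows were higher (54 and 63 without SCI-labelled libraries 3 and 1, 152 without control-labelled library 3) and 87 to 179 lower, against 100 and 142; on the neuron list 5 to 11 were higher and 0 to 1 lower. The 1 lower neuron member was also lost (0 lower) with limma on log2(TPM + 1) and with the replicate block. The median log2 change of all rows, -0.072, became 0.037 with the upper quartile, 0.050 with limma voom, 0.078 without control-labelled library 3 and -0.15 with the library total. With the upper quartile 120 rows were higher and 120 lower, and with the library total 75 and 144. Same-numbered libraries did not deviate together (correlations of -0.28, 0.21 and -0.19), but so few libraries cannot exclude a pairing. With the replicate block 78 rows were higher and 112 lower. The alternatives for the named miRNAs outside miR-129 were run after seeing the data. In each case of a lost or gained call the cause was not tested.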
